A study of Mus musculus with 18 samples.

Results

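Tumours of the GFD subtype were set against tumours of the NG subtype within the Ptch model of medulloblastoma in the mouse, with 2 GFD-Ptch arrays and 4 NG-Ptch arrays, which are 6 of the 18 arrays of the study. The arrays were chosen by the group in their titles, and all 19938 genes with a single gene symbol were described, each through its brightest probe set on average across the 18 arrays. Total RNA of each tumour had been labelled and hybridized to an Affymetrix whole-transcript array, 1 array per tumour. The other 12 arrays entered the fit that estimates the spread of each gene. They comprise 4 GFI-Ptch tumours, 4 GFD-Smo;GFAP-cre tumours and 4 NG-Smo;Atoh1-CreER tumours. NG, GFD and GFI are names that the labels do not spell out, and the Ptch allele, the strain and the age of the mice are not given in the sources used here. The labels call all 6 tumours Ptch medulloblastomas and name no treatment, Cre driver or host for them. GFD-Ptch replicates 1 and 2 are labelled male, NG-Ptch replicate 1 is labelled female, and NG-Ptch replicates 2, 4 and 5 carry the gender label ND.

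Medulloblastoma is a tumour of the cerebellum. In the Hedgehog class, signalling that Ptch1 normally holds back keeps granule neuron progenitors dividing, and Gli transcription factors carry the signal to the nucleus. Such tumours can also hold cells with features of astrocytes and oligodendrocyte progenitors, together with vessels and microglia, and all of these contribute RNA to a bulk sample.

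Values are log2 signals, so a change of 1 is a doubling. A change is GFD-Ptch minus NG-Ptch, given with its standard error (SE), and a gene was called at a Benjamini-Hochberg adjusted p under 0.05 in limma. The array medians lay between 7.776 and 7.854. Correlations over all genes were 0.993 to 0.996 among NG-Ptch arrays, 0.993 between the GFD-Ptch arrays, and 0.985 to 0.991 between the groups. The labels do not say that replicates came from separate animals, so p-values measure the spread between these samples, and the number of arrays limits their precision. In bulk samples, fewer cells of a type and less RNA per cell cannot be told apart.

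The progenitor signature was present in both groups. Atoh1, the transcription factor that defines granule neuron progenitors, measured 12.28 and 12.33 in the GFD-Ptch arrays and 12.34, 11.78, 12.51 and 12.06 in the NG-Ptch arrays, which overlap. The mean level of 16 progenitor genes was 11.19 to 11.24 in GFD-Ptch and 11.22 to 11.25 in NG-Ptch. The Ptch1 probe set may or may not lie in the altered part of the gene, so a reading of it says nothing about the labels.

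The groups also differed in sex-linked RNA. Eif2s3y, a Y-linked translation factor gene, read 9.98 and 10.12 in GFD-Ptch and 4.97 to 5.05 in NG-Ptch. Xist, the RNA of the silenced X chromosome, read 6.80 and 6.81 in GFD-Ptch and 11.85, 10.74, 13.00 and 13.39 in NG-Ptch. Neither pair of ranges overlaps, and the mean of 3 Y-linked genes was 9.84 in both GFD-Ptch arrays and 5.40 to 5.47 in the NG-Ptch arrays. Sex and subtype therefore cannot be told apart within these 6 arrays. The other groups held both high and low Y-linked arrays, and through them a covariate could be fitted. No gene was called by limma with the gender label as a covariate (2962 genes at an unadjusted p under 0.05) or with the Y-linked level as a covariate (3895 genes). Uba1y, another Y-linked gene, read 11.01 and 7.57 in the GFD-Ptch arrays against 6.37 to 6.54, so the GFD-Ptch arrays differed from each other for it.

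Across the 19938 genes, 1 was called higher in GFD-Ptch (0.00502% of genes) and 1 lower (0.00502%). At an unadjusted p under 0.05, 2068 genes (10.4%) were higher and 1307 (6.56%) lower. Without overlap between the 2 GFD-Ptch and 4 NG-Ptch values, 4099 genes (20.6%) were higher and 2796 (14.0%) lower, 34.6% of all genes together. After each array was centred on its median, that split became 2605 higher (13.1%) and 3662 lower (18.4%), so which direction holds more such genes depends on the scaling. With a log2 change of at least 1 as well, 25 genes (0.125%) were higher and 110 (0.552%) lower. The median change over all genes was 0.04, with 58.1% of genes above 0 and 41.9% below 0. An exact permutation of 2 against 4 arrays has 15 splits and cannot go below 0.067 one-sided.

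Vopp1, which encodes a vesicle membrane protein, rose in GFD-Ptch. Its signal was 11.04 and 10.89 in the GFD-Ptch arrays and 10.33, 10.15, 10.42 and 10.21 in the NG-Ptch arrays. Both GFD-Ptch values lie above every NG-Ptch value. The change was 0.69 (SE 0.08), which is 1.61-fold, with an adjusted p of 0.00588. In a fit of the 10 Ptch arrays alone its adjusted p was 0.116, and with the gender label, the Y-linked level and the replicate number in the fit it was 0.172, 0.0931 and 0.104.

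Zdhhc2, an enzyme that attaches palmitate to proteins, fell. It measured 8.64 and 7.94 in the GFD-Ptch arrays and 9.86, 9.98, 9.80 and 9.84 in the NG-Ptch arrays. The NG-Ptch values lie close together and above both GFD-Ptch values. The change was -1.58 (SE 0.217), 2.99-fold lower, with an adjusted p of 0.0232. That p was 0.312 without GFD-Ptch replicate 2, 0.0905 without NG-Ptch replicate 1, 0.111 without NG-Ptch replicate 2 and 0.0576 without NG-Ptch replicate 5. It was 0.0508 and 0.0515 without GFD-Smo replicate 1 or 2, and 0.0905, 0.201, 0.135 and 0.106 with the 10 Ptch arrays alone, the gender label, the Y-linked level or the replicate number. The other 19 measured genes of its family were not called, and the median change of the 20 was 0.01.

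**Figure D1:**
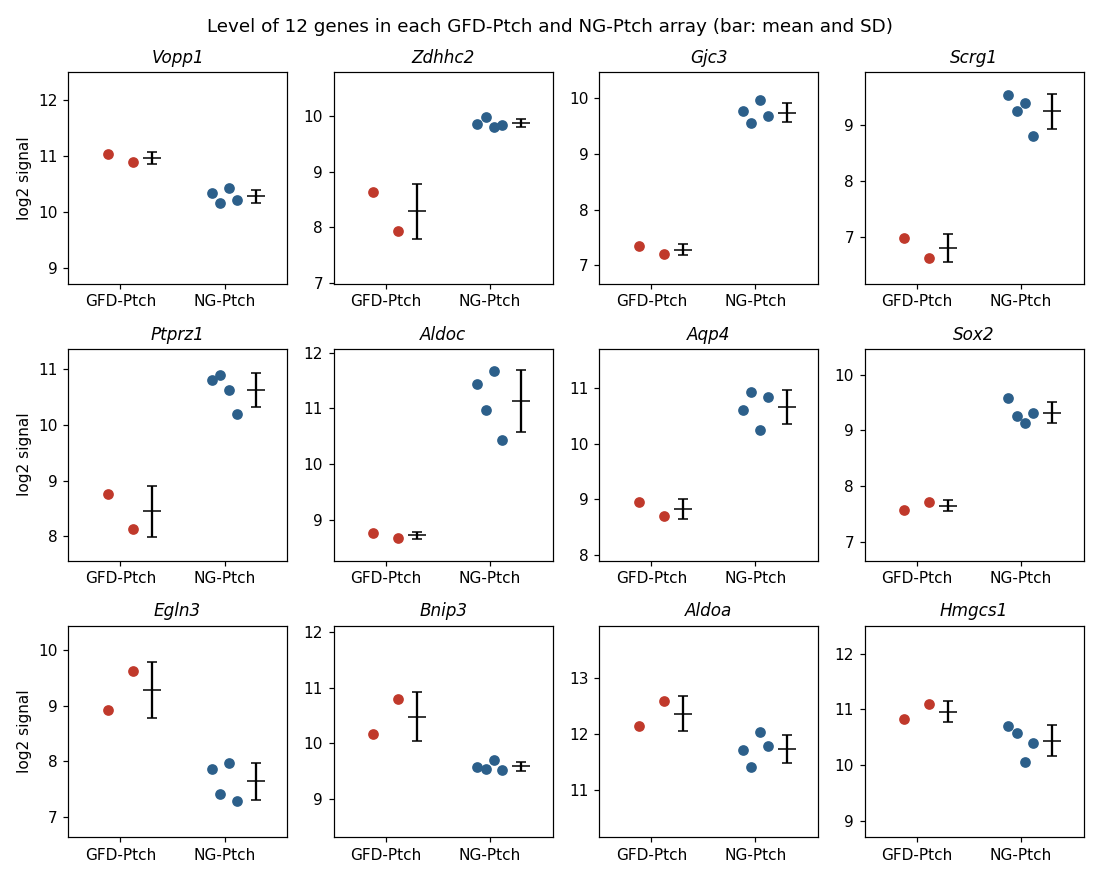
Log2 signal (vertical axis) of 12 genes in the 2 GFD-Ptch arrays (red) and the 4 NG-Ptch arrays (blue), 1 point per array, with the mean and the SD as a bar at the right of each group, every panel spanning the same height. Zdhhc2 lies at 8.64 and 7.94 in GFD-Ptch and above 9.7 in every NG-Ptch array. The 12 genes were picked with these values known, and in none of the panels do the groups overlap. Of all genes, 34.6% do not overlap.

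The number of calls turned on which arrays set the spread. Fitted on the 6 GFD-Ptch and NG-Ptch arrays alone, 50 genes (0.251%) were called higher and 195 (0.978%) lower, 1.23% in all. In the fit of 18 arrays without GFI-Ptch replicate 4, a tumour labelled as progressed from another one and grown in an NSG host, a strain without mature lymphocytes, 62 genes (0.311%) were called higher and 82 (0.411%) lower, 0.722% in all.

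**Figure D2:**
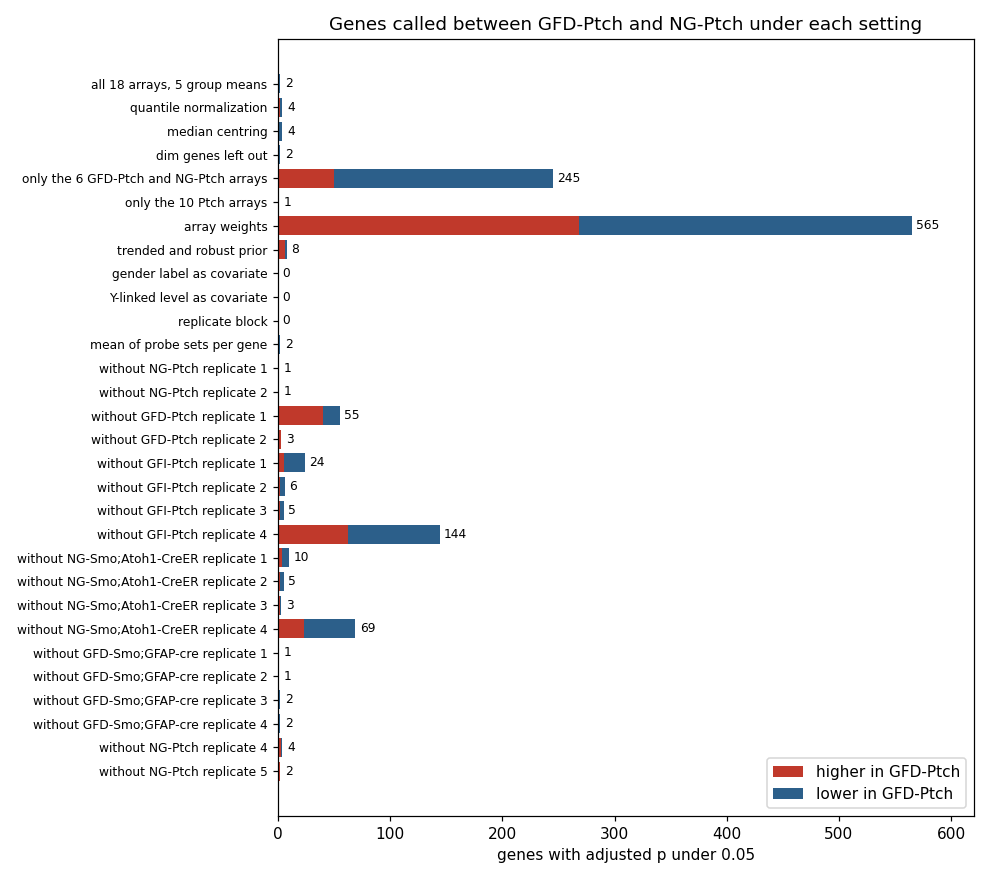
Number of genes with an adjusted p under 0.05 between GFD-Ptch and NG-Ptch (horizontal axis) in the fit of all 18 arrays and under each alternative, split into higher (red) and lower (blue). The count is 2 with all arrays, 245 with the 6 arrays of the comparison and 565 with array weights.

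Among the genes that did not overlap and had an unadjusted p under 0.01, 5 were higher by at least 1 and 68 lower, sex-linked genes and unnamed loci left out. The largest difference on the low side was Vxn, a gene of neuronal differentiation, at 7.42 and 7.35 in GFD-Ptch and 10.26, 9.90, 10.14 and 9.49 in NG-Ptch. The change of -2.56 (SE 0.523) had an adjusted p of 0.0912, or 0.0306 without GFI-Ptch replicate 4. Dock3, an activator of the small GTPase Rac in neurons, read 8.12 and 7.53 against 10.10 to 10.36. Every NG-Ptch value of both genes lies more than 1 log2 unit above the GFD-Ptch values. Zswim5, a zinc finger gene, read 6.95 and 7.94 against 9.52 to 9.63, so its GFD-Ptch arrays differed from each other more than its NG-Ptch arrays did. Rlbp1, a retinaldehyde-binding protein, read 7.01 and 6.81 against 8.44 to 9.26. Car2, a carbonic anhydrase, read 7.13 and 7.16 against 8.81 to 9.41. Of these 5 genes none was called with 18 arrays (adjusted p 0.0877 to 0.163), and all were in the fit of 6 arrays (0.00296 to 0.0165).

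On the high side, Lrrc9 measured 8.22 and 8.11 in GFD-Ptch and 6.65, 6.99, 6.42 and 6.94 in NG-Ptch. Thsd7a, which has thrombospondin domains, read 10.65 and 11.83 against 9.60 to 10.30, and Prickle2, a planar cell polarity gene, 9.18 and 9.30 against 7.78 to 8.30. Kcnk9, a potassium leak channel of granule neurons, read 10.02 and 10.24 against 8.43 to 9.35. Sema3f, a secreted guidance cue, read 9.23 and 9.36 against 8.04 to 8.46. The rule that picked these 5 genes required separate groups and a change of at least 1. Their changes were 1.01 to 1.42, with adjusted p of 0.0767 to 0.17. Lrrc9, Prickle2 and Sema3f were called in the fit of 6 arrays (0.0166, 0.0163 and 0.0197), Thsd7a and Kcnk9 were not.

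Genes of oligodendrocyte progenitors, the dividing precursors of myelin-forming cells, were lower in GFD-Ptch by a median of 0.99. All 16 measured members had a change below 0, from -2.46 to -0.22. For 14 of the 16 the groups did not overlap, against 14.0% of all genes on the low side. None was called with 18 arrays, 7 were called lower in the fit of 6 arrays and 5 without GFI-Ptch replicate 4. The shares of all genes called lower in those fits were 0.978% and 0.411%. The mean level of the list was 8.22 to 8.36 in GFD-Ptch and 9.26 to 9.70 in NG-Ptch.

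Gjc3, a connexin of oligodendrocyte lineage cells, measured 7.35 and 7.21 in GFD-Ptch and 9.76, 9.56, 9.96 and 9.67 in NG-Ptch. Scrg1, a small secreted protein of glia, measured 6.97 and 6.62 against 9.54, 9.25, 9.40 and 8.81. In both cases the lowest NG-Ptch array is more than 1 log2 unit above the GFD-Ptch arrays, with changes of -2.46 (SE 0.648) and -2.45 (SE 0.549) and adjusted p of 0.141 and 0.114. Ptprz1, a receptor phosphatase, read 8.77 and 8.13 against 10.20 to 10.89. Tnr, a tenascin of the extracellular matrix, read 7.78 and 7.25 against 8.91 to 10.13. The proteoglycan gene Cspg5 read 8.60 and 7.99 against 10.08 to 10.42, and the membrane protein gene Lhfpl3 8.75 and 8.65 against 10.47 to 10.88. Those 6 genes differed 3.81-fold to 5.49-fold, and each was called in the fit of 6 arrays. Olig2, the transcription factor of the lineage, stood apart from them. It measured 10.01 and 9.81 in GFD-Ptch and 9.99, 10.14, 10.46 and 10.15 in NG-Ptch, and the groups overlap at a change of -0.28 (SE 0.29).

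Genes of mature oligodendrocytes were mixed. Of 14 myelin genes, 10 had a change below 0 with a median of -0.14, and 3 were lower without overlap (4 after median centring), against 14.0% and 18.4% of all genes. Cnp, an enzyme of myelin, read 7.99 and 7.61 against 9.11 to 10.27, and Ugt8a, which makes a myelin lipid, 8.36 and 8.14 against 8.89 to 9.40. Neither was called. With the Y-linked level in the fit, the median of the list was 0.28.

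Astrocyte genes were lower in GFD-Ptch by a median of 1.02. Of 19 measured members, 16 had a change below 0 and 13 were lower without overlap, against 14.0% of all genes. No member was higher without overlap, against 20.6%. None was called with 18 arrays, 8 were called lower in the fit of 6 arrays and 4 without GFI-Ptch replicate 4. Of all genes, 0.978% and 0.411% were called lower in those fits. The mean level of the list was 8.63 to 8.75 in GFD-Ptch and 9.48 to 9.65 in NG-Ptch. The medians of the astrocyte and oligodendrocyte progenitor lists were -0.35 and -0.14 with the gender label in the fit, and -0.77 and -1.0 with the Y-linked level.

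Aldoc, the glycolytic aldolase of astrocytes and Purkinje cells, measured 8.77 and 8.68 in GFD-Ptch and 11.44, 10.97, 11.68 and 10.43 in NG-Ptch, 5.3-fold lower (adjusted p 0.206). Aqp4, the water channel of astrocyte endfeet, measured 8.95 and 8.70 against 10.60, 10.93, 10.24 and 10.83, a change of -1.83 (SE 0.424, adjusted p 0.114). Every NG-Ptch array exceeded both GFD-Ptch arrays by over 1 log2 unit for either gene. Clu, a secreted chaperone, read 7.98 and 8.17 against 8.87 to 10.22, and Plpp3, a lipid phosphatase, 8.35 and 7.61 against 9.15 to 9.87. Slc4a4, a bicarbonate transporter, read 9.40 and 8.24 against 10.03 to 10.33, and its GFD-Ptch arrays lie further apart than the distance from the higher of them to NG-Ptch. Gfap, the intermediate filament of astrocytes, measured 10.17 and 9.24 in GFD-Ptch and 10.47, 10.45, 10.40 and 10.58 in NG-Ptch. Its change was -0.77 (SE 0.316, adjusted p 0.261), with GFD-Ptch replicate 1 close to the NG-Ptch arrays and replicate 2 well below them.

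**Figure D3:**
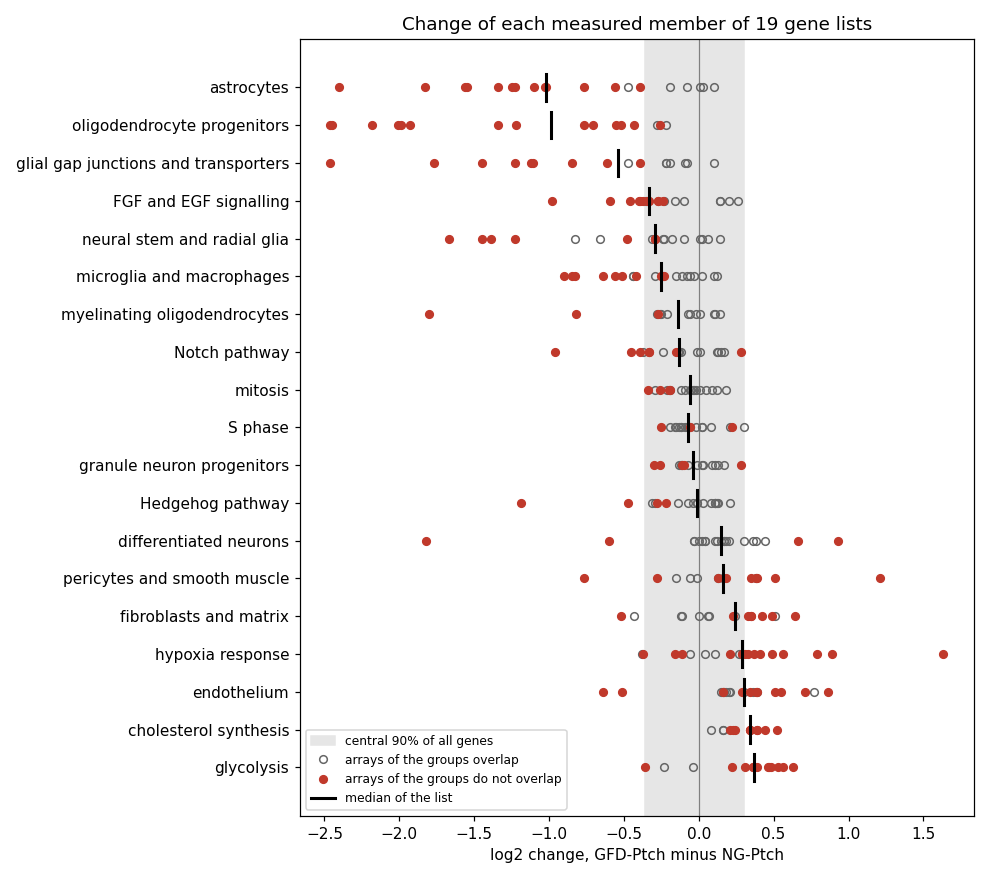
Log2 change, GFD-Ptch minus NG-Ptch (horizontal axis), of every measured member of 19 gene lists, with filled points where the groups do not overlap, open points where they do, a black bar at the list median and a grey band from -0.36 to 0.3 that holds the central 90% of all genes. The astrocyte and oligodendrocyte progenitor medians lie at -1.02 and -0.99, those of glycolysis and cholesterol synthesis at 0.37 and 0.34.

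Genes of glial gap junctions, channels, transporters and glutamate receptors lay on the low side as well. Of the 16 measured members, 4 also stand in the astrocyte or oligodendrocyte progenitor list. The median change was -0.54, with 15 members below 0 and 9 lower without overlap, against 14.0% of all genes. With the gender label in the fit the median was -0.18, and 0 members had an unadjusted p under 0.05 in limma, against 7 without that label. Of the 16, 6 were called lower in the fit of 6 arrays, against 0.978% of all genes. With 18 arrays 0 were, and without GFI-Ptch replicate 4 there were 3, against 0.411% of all genes. Gria1, an AMPA receptor subunit, measured 8.03 and 7.49 in GFD-Ptch and 9.67, 9.61, 9.18 and 9.65 in NG-Ptch. Kcnj10, the potassium channel of astrocytes, read 7.87 and 7.65 against 8.89 to 9.35, and Slc14a1, a urea transporter, 7.83 and 7.60 against 8.42 to 9.28. Slc1a3, the glutamate transporter of radial glia and astrocytes, measured 10.63 and 10.34 against 11.93, 11.71, 11.63 and 11.59. The last had a change of -1.23 (SE 0.398) and an adjusted p of 0.194 with 18 arrays, 0.00386 without GFI-Ptch replicate 4 and 0.0111 with 6 arrays.

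Neural stem and radial glia genes had a median change of -0.29, with 15 of 19 below 0 and 8 lower without overlap, against 14.0% of all genes. With either the gender label or the Y-linked level in the fit the median was -0.18, and with the gender label 10 of 19 were below 0. Sox2, a transcription factor of neural stem cells, measured 7.58 and 7.72 in GFD-Ptch and 9.58, 9.25, 9.14 and 9.31 in NG-Ptch. Its groups are more than 1 log2 unit apart, a change of -1.67 (SE 0.531) or 3.19-fold, with an adjusted p of 0.19 and of 0.00476 with 6 arrays. Bcan, a brain proteoglycan, read 8.53 and 9.08 against 10.07 to 10.50. Fabp7, the fatty acid binding protein of radial glia, read 12.23 and 11.55 against 13.10 to 13.38. Tnc, another tenascin, read 8.03 and 6.95 against 7.37 to 9.01 and overlapped. Sox2, Bcan, Fabp7 and Slc1a3 were the 4 members called in the fit of 6 arrays, and Fabp7 and Slc1a3 were called lower without GFI-Ptch replicate 4. Of all genes, 0.978% and 0.411% were called lower in those fits.

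Signalling by fibroblast and epidermal growth factors was represented by 22 genes, of which 18 had a change below 0 (median -0.33) and 13 were lower without overlap, against 14.0% of all genes. With the gender label in the fit the median was -0.09, 15 genes were below 0, and 0 had an unadjusted p under 0.05 in limma, against 9 without that label. Only 1 was called, Fgfr2, in the fit of 6 arrays, against 0.978% of all genes called lower there. None was called with 18 arrays or without GFI-Ptch replicate 4. Among receptors, Fgfr2 measured 7.79 and 7.26 in GFD-Ptch and 8.58, 8.63, 8.48 and 8.30 in NG-Ptch, a change of -0.98 (SE 0.363, adjusted p 0.237). Egfr read 11.03 and 10.68 against 10.91 to 11.56, and Fgfr1 10.34 and 10.03 against 10.33 to 10.50. Both overlap between the groups. Of the genes that respond to this signalling, the transcription factor Etv5 read 10.01 and 9.51 against 10.12 to 10.61, the inhibitor Spry1 8.84 and 8.81 against 9.02 to 9.56, and the phosphatase Dusp6 9.57 and 9.15 against 9.58 to 9.94. Their changes were -0.59, -0.46 and -0.40, and none was called. In the Notch pathway, 12 of 18 genes had a change below 0 (median -0.13), and with the gender label in the fit the median was 0.05. The ligand Jag1 measured 8.45 and 7.81 against 9.05, 9.40, 8.90 and 9.0, a change of -0.96 (SE 0.271, adjusted p 0.163).

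The Hedgehog pathway, which drives these tumours, had a median change of -0.01 over 19 genes, 8 above and 11 below 0. With 18 or 6 arrays no member was called. Without GFI-Ptch replicate 4, Hhip was the 1 member called, against 0.411% of all genes called lower in that fit. A target gene that binds Hedgehog ligands and inhibits them, it measured 9.16 and 8.74 in GFD-Ptch and 9.61, 10.59, 9.98 and 10.38 in NG-Ptch. Its groups did not overlap, and the change was -1.19 (SE 0.338, adjusted p 0.163, and 0.0359 without GFI-Ptch replicate 4). The co-receptor Gas1 read 9.68 and 9.24 against 9.80 to 10.18. Gli1, the transcription factor most often read as an output of the pathway, measured 10.26 and 10.06 against 10.38, 10.48, 10.50 and 10.42, a change of -0.28 (SE 0.178, adjusted p 0.403). Ptch1 read 11.56 and 11.26 against 11.21 to 12.14, Smo 11.67 and 11.59 against 11.13 to 11.76, and the growth regulator Mycn 11.63 and 11.43 against 11.68 to 11.88. Ptch1 and Smo overlapped between the groups, and Mycn differed by 0.22.

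Granule neuron progenitor and cell cycle genes had small differences. The 16 granule neuron progenitor genes had changes from -0.30 to 0.28 with a median of -0.04. The 19 S phase genes had a median of -0.07 and the 19 mitosis genes of -0.06, and no member of the 3 lists was called in any of the fits of 18, 17 without GFI-Ptch replicate 4, or 6 arrays. Genes of differentiated neurons were mixed, with 17 of 21 above 0 and a median of 0.15, which was -0.03 without GFD-Ptch replicate 1 and 0.41 without replicate 2. It was -0.15 with the gender label and -0.03 with the Y-linked level in the fit. Nefl, the light neurofilament, measured 6.97 and 6.86 in GFD-Ptch and 8.32, 9.02, 8.82 and 8.79 in NG-Ptch, a change of -1.82 (SE 0.598, adjusted p 0.2). It was the 1 member of the list called in the fit of 6 arrays (adjusted p 0.011), against 0.978% of all genes called lower there. No member was called without GFI-Ptch replicate 4. Slc17a7, the vesicular glutamate transporter, read 9.45 and 8.72 against 7.62 to 8.65, and Chgb, a granin of secretory vesicles, 10.42 and 10.22 against 9.53 to 9.98.

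Genes of microglia and macrophages, the resident phagocytes of the brain, had a median change of -0.25, with 18 of 21 below 0 and 9 lower without overlap, against 14.0% of all genes. C1qa, a complement component, measured 9.29 and 8.66 in GFD-Ptch and 10.27, 9.90, 9.71 and 9.61 in NG-Ptch. Tyrobp, a signalling adaptor, read 10.07 and 9.55 against 10.42 to 10.91, and the lysozyme gene Lyz2 11.49 and 10.57 against 11.52 to 12.16. The protease gene Ctss read 9.62 and 9.20 against 9.76 to 10.53. GFD-Ptch replicate 2 was the lowest of the 6 arrays for all 4, and replicate 1 was close to the lowest NG-Ptch array for Lyz2 and Ctss. No member was called (adjusted p of the 4 genes 0.139 to 0.268). The median was -0.34 without GFD-Ptch replicate 1 and -0.14 without replicate 2. Interferon response genes (13 measured) and MHC class II genes (6 measured) had medians of -0.02 and 0.08. The 10 lymphocyte genes had a median of 0.21, or 0.12 with quantile normalization. Their mean level was low, at 6.64 to 6.73 in GFD-Ptch and 6.43 to 6.58 in NG-Ptch. The lower quartiles of the 6 arrays were 6.238 to 6.382.

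Vessel genes lay on the high side in GFD-Ptch. Of 21 endothelial genes 19 had a change above 0 (median 0.30) and 9 were higher without overlap, against 20.6% of all genes. After median centring 6 were, against 13.1%. The median was 0.44 with the gender label and 0.22 with the Y-linked level in the fit. No endothelial gene was called with 18 arrays, with 6 arrays or without GFI-Ptch replicate 4. The mean level of the list was 8.24 and 8.37 in GFD-Ptch and 7.89 to 8.28 in NG-Ptch, so the groups overlap. NG-Ptch replicate 4, at 8.28, lay above GFD-Ptch replicate 1. Emcn, an endothelial sialomucin, measured 8.71 and 8.46 in GFD-Ptch and 7.65, 7.94, 7.95 and 7.38 in NG-Ptch, a change of 0.86 (SE 0.322, adjusted p 0.238). Cdh5, the cadherin of endothelial junctions, read 8.89 and 8.96 against 8.0 to 8.62, and Eng, a co-receptor for transforming growth factor beta, 9.04 and 8.94 against 8.22 to 8.90. Transporters of the blood-brain barrier were mixed. The glucose transporter Slc2a1 and the efflux pump Abcb1a, picked out after their values were seen, were higher without overlap by 0.39 and 0.16. Mfsd2a, a lipid carrier, read 8.56 and 11.07 against 8.44 to 9.42, so only GFD-Ptch replicate 2 was high. Slco1c1, a thyroid hormone carrier, read 8.0 and 8.10 against 8.21 to 9.16 and was one of the 2 members lower without overlap.

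Pericyte and smooth muscle genes of the vessel wall had a median change of 0.16, with 10 of 15 above 0. Without overlap 7 were higher and 2 lower, or 4 and 2 after median centring, against 20.6% and 14.0% of all genes before centring and 13.1% and 18.4% after it. With 18 or 6 arrays no member was called. Without GFI-Ptch replicate 4, Acta2 was the 1 member called, against 0.311% of all genes called higher in that fit. This smooth muscle actin measured 9.61 and 9.75 in GFD-Ptch and 8.09, 8.76, 8.86 and 8.15 in NG-Ptch, a change of 1.21 (SE 0.569, adjusted p 0.294, and 0.0391 without GFI-Ptch replicate 4). The members lower without overlap were Cspg4, a proteoglycan of pericytes and oligodendrocyte progenitors, at a change of -0.77, and Anpep, an aminopeptidase, at -0.28. Mcam, an adhesion molecule of pericytes, read 9.15 and 9.25 against 8.53 to 8.87. Pdgfrb, the receptor that recruits pericytes, measured 8.43 and 8.39 against 7.90, 7.95, 8.32 and 7.91. Here NG-Ptch replicate 4 lay near the GFD-Ptch arrays, and it did so for the mean level of the pericyte list as well (8.28, against 7.90 to 7.94 in the other NG-Ptch arrays and 8.16 to 8.20 in GFD-Ptch). Of 16 fibroblast and matrix genes 12 were above 0 (median 0.24). Without overlap 7 were higher, against 20.6% of all genes, and 6 after median centring, against 13.1%. No gene of this list was called with 18 arrays, with 6 arrays or without GFI-Ptch replicate 4. Its mean level was 9.32 to 9.5 in GFD-Ptch and 9.17 to 9.33 in NG-Ptch, which overlap. Mgp, a matrix protein, read 8.33 and 8.29 against 7.5 to 7.92.

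Genes of the response to low oxygen were higher in GFD-Ptch by a median of 0.29. Of 20 members, 15 had a change above 0. Without overlap 12 were higher and 3 lower, against 20.6% and 14.0% of all genes. After median centring these counts were 9 and 4, against 13.1% and 18.4%. None was called with 18 arrays, 3 were called higher without GFI-Ptch replicate 4 and 2 in the fit of 6 arrays. Of all genes, 0.311% and 0.251% were called higher in those fits. The mean level of the list was 9.04 and 9.29 in GFD-Ptch replicates 1 and 2 and 8.85 to 8.89 in NG-Ptch.

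The hypoxia-inducible factors bind DNA at a core of ACGTG or GCGTG. RefSeq promoter windows of GRCm38.p6, which run 250 bases before to 50 after a transcript start, were searched on both strands, where a CACGTG counts on each. The 3 members with a large change are shown as the bases before the start, read 5' to 3', because their windows hold the core and their transcripts lie apart between the groups. Capitals mark the core on either strand. Egln3 (chr12:54203875-54204124, minus strand) holds 1 match, Bnip3 (chr7:138909507-138909756, minus strand) holds 5 and Adm (chr7:110627407-110627656, plus strand) holds 2.
Egln3: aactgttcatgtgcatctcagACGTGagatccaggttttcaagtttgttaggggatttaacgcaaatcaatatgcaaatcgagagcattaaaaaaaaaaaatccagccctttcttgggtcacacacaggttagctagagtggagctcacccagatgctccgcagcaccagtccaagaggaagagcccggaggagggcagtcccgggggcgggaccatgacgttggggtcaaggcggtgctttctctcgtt
Bnip3: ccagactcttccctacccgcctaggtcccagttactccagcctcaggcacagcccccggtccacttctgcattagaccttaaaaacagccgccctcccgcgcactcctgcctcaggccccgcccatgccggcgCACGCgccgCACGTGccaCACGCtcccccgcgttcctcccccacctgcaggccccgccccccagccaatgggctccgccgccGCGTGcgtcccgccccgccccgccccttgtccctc
Adm: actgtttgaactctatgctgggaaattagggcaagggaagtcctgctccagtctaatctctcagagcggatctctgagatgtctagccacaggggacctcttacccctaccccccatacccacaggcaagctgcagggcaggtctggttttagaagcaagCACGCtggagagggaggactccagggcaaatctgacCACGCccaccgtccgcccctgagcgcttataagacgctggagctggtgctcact

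A match was found in 43.8% of all 32851 windows and in 20 of the 24 windows of the list (83.3%). By gene, all 18 members with a window held one, against 46.7% of all 27025 genes, with base composition not matched. In the cholesterol synthesis list, 8 of 10 genes with a window held one as well (80.0%). The match is a description of these letters and not evidence of binding.

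Egln3, an oxygen-sensing prolyl hydroxylase that is itself induced by low oxygen, measured 8.92 and 9.63 in GFD-Ptch and 7.87, 7.42, 7.98 and 7.30 in NG-Ptch. The change was 1.63 (SE 0.682), or 3.1-fold, with an adjusted p of 0.264, and of 0.0207 without GFI-Ptch replicate 4 and 0.0404 with 6 arrays. Bnip3, a mitochondrial receptor for autophagy, measured 10.17 and 10.79 against 9.57, 9.54, 9.70 and 9.53, a change of 0.89 (SE 0.297, adjusted p 0.204). GFD-Ptch replicate 2 was the highest array for both genes. Adm, which encodes the vessel-dilating peptide adrenomedullin, measured 7.0 and 8.0 against 6.70, 6.66, 6.62 and 6.85, with replicate 1 only just above NG-Ptch. Kdm3a, a histone demethylase, measured 11.06 and 10.97 against 10.45, 10.46, 10.49 and 10.42, and its groups were narrow and apart (change 0.56, SE 0.128, adjusted p 0.114). Vegfa, the main growth factor of vessels, read 9.71 and 10.14 against 9.11 to 9.57. The median of the list was 0.42 without GFD-Ptch replicate 1, 0.17 without replicate 2, 0.17 with the gender label and 0.44 with the Y-linked level.

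Glycolysis genes, none of them a member of the hypoxia list, had a median change of 0.37, with 11 of 14 above 0 and 11 higher without overlap, against 20.6% of all genes. That count was also 11 after median centring, against 13.1% of all genes. With the gender label in the fit the median was 0.15. None was called with 18 arrays, 2 were called higher without GFI-Ptch replicate 4 and 1 in the fit of 6 arrays. The shares of all genes called higher in those fits were 0.311% and 0.251%. Aldoa, an aldolase, measured 12.14 and 12.59 in GFD-Ptch and 11.72, 11.41, 12.03 and 11.78 in NG-Ptch. Slc16a3, a lactate exporter, read 8.42 and 8.75 against 7.90 to 8.10 (change 0.56, SE 0.128, adjusted p 0.114, and 0.0352 without GFI-Ptch replicate 4). Pgam1, a phosphoglycerate mutase, measured 11.52 and 11.65 against 10.96, 10.97, 11.35 and 10.92, with NG-Ptch replicate 4 above its group. The neuronal glucose transporter Slc2a3 read 10.89 and 10.95 against 10.27 to 10.66. Of 13 of these genes with a promoter window, 12 held the core.

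Cholesterol synthesis genes were all on the high side. The 13 measured members had changes from 0.08 to 0.52 with a median of 0.34, where 58.1% of all genes were above 0. Without overlap 10 were higher, against 20.6% of all genes, and 8 after median centring, against 13.1%. The mean level of the list was 10.27 to 10.30 in GFD-Ptch and 9.83 to 10.10 in NG-Ptch. Hmgcs1, an early enzyme of the pathway, measured 10.82 and 11.09 against 10.71, 10.58, 10.06 and 10.40. Dhcr7, a late one, read 9.39 and 9.43 against 8.71 to 9.23, and Srebf2, the transcription factor that controls the pathway, 10.83 and 10.82 against 10.28 to 10.68. Hmgcs1 was the 1 member with an unadjusted p under 0.05, and none was called (adjusted p of these 3 genes 0.261 to 0.31). With the gender label in the fit the median was 0.04. Msmo1, another enzyme, read 9.93 and 9.91 against 9.10 to 9.78.

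RNA of neighbouring tissue was uneven among the arrays. Ttr, the transthyretin gene that defines choroid plexus, measured 6.72 and 6.78 in GFD-Ptch and 6.64, 6.67, 12.14 and 6.66 in NG-Ptch. NG-Ptch replicate 4 alone was high, and it was high for the mean of 10 choroid plexus genes as well, at 8.57 against 7.08 to 7.26 in the other NG-Ptch arrays and 7.12 to 7.24 in GFD-Ptch. Purkinje cell genes were higher in NG-Ptch replicates 1 and 4. Calb1, a calcium buffer, measured 6.54 and 6.15 in GFD-Ptch and 8.90, 7.33, 8.58 and 6.11 in NG-Ptch, and Car8, another Purkinje cell gene, 7.17 and 7.12 against 9.33, 8.45, 9.33 and 7.64. Pvalb, the parvalbumin of interneurons and Purkinje cells, read 9.89 and 9.96 against 8.24 to 9.09. The means of the list of 12 genes were 7.63 to 7.66 in GFD-Ptch and 7.53 to 8.14 in NG-Ptch. The part of these tissues in the glial differences was not tested. Without NG-Ptch replicate 4 the medians of the astrocyte and oligodendrocyte progenitor lists were -0.97 and -0.87.

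A further question was whether GFD and NG tumours differ alike in the Smo model. There the subtype and the Cre driver are the same split, with NG tumours from Atoh1-CreER, an inducible Cre expressed in granule neuron progenitors, and GFD tumours from GFAP-cre, which is active in neural stem cells and astrocytes, so subtype and driver cannot be told apart. In Smo tumours 561 genes (2.81%) were called higher in GFD and 497 (2.49%) lower. Of the 561, 385 had a change below 0 in Ptch tumours (68.6%), against 41.9% of all genes. Of the 497, 276 were above 0 in Ptch tumours and 44.5% were below 0, again against 41.9%. The changes in the models share no array, and their difference was tested gene by gene. It was called for 759 genes (3.81%). The change was higher in Ptch than in Smo tumours for 280 (1.4%) and lower for 479 (2.4%). Choosing genes by that difference in itself favours opposite signs in the models. Of the 479, 447 had a change below 0 in Ptch tumours and above 0 in Smo tumours. Of the 280, 257 were above 0 in Ptch and below 0 in Smo. Without GFD-Ptch replicate 2 the count was 248, and without GFI-Ptch replicate 4 it was 1285.

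Astrocyte genes held many of these. Their median change was -1.02 in Ptch tumours and 1.05 in Smo tumours. The difference was called lower in Ptch for 13 of 19 members, against 2.4% of all genes. That count was 11 without NG-Smo replicate 4, 3 with the gender label, 2 with the Y-linked level and 11 with the replicate number. Over all 19938 genes the counts called lower in Ptch were 396, 147, 122 and 295 in those fits, against 479 in the main fit. The Ptch median of the list was -0.9 and -0.76 without GFD-Ptch replicate 1 or 2. For Aqp4 the change was -1.83 in Ptch and 1.89 in Smo, a difference of -3.72 (SE 0.548, adjusted p 0.00213). Plpp3 differed by -3.25 (SE 0.473, adjusted p 0.00201), from -1.55 to 1.71. For Gfap the changes were -0.77 and 1.11 (adjusted p of the difference 0.0197), for Kcnj10 -1.45 and 1.52 (0.0134), and for Slc14a1 -1.12 and 1.51 (0.0104). Each of these 5 genes was lower in GFD than in NG tumours of the Ptch model and higher in those of the Smo model. Of the 16 genes of glial gap junctions, channels, transporters and glutamate receptors, 10 had a difference called lower in Ptch, against 2.4% of all genes. That count was 8 without NG-Smo replicate 4, 1 with the gender label, 1 with the Y-linked level and 7 with the replicate number. The counts over all genes in those fits are the ones given above. The Ptch median of these 16 genes was -0.71 and -0.54 without GFD-Ptch replicate 1 or 2.

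Other named genes differed between the models as well. Zdhhc2 had a change of -1.58 in Ptch and 0.45 in Smo (difference -2.03, SE 0.281, adjusted p 0.00146), and Vopp1 of 0.69 and -0.26 (difference 0.94, SE 0.104, adjusted p 0.00027). Hhip had changes of -1.19 and 1.14 (adjusted p of the difference 0.00907), Jag1 of -0.96 and 0.65 (0.0199), and Fgfr2 of -0.98 and 1.04 (0.0271). The oligodendrocyte progenitor genes had a Smo median of 0.17. Their difference was called lower in Ptch for 2 of 16, against 2.4% of all genes. These were Gjc3 (-3.57, SE 0.837, adjusted p 0.0281) and Scrg1 (-3.57, SE 0.709, adjusted p 0.0124). The count for the list was 7 without GFI-Ptch replicate 4, 0 with the gender label or the Y-linked level, and 1 with the replicate number. Over all genes the counts called lower in Ptch were 762, 147, 122 and 295 in those fits, against 479 in the main fit. The Ptch median of the list was -0.96 and -0.84 without GFD-Ptch replicate 1 or 2. Kdm3a had changes of 0.56 in Ptch and -0.32 in Smo (difference 0.88, adjusted p 0.00952). Slc2a3 had changes of 0.48 and -0.52 (difference 1.0, adjusted p 0.00756). Cholesterol synthesis genes had a median of 0.34 in either model, and no difference was called for any of the 13.

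**Figure D4:**
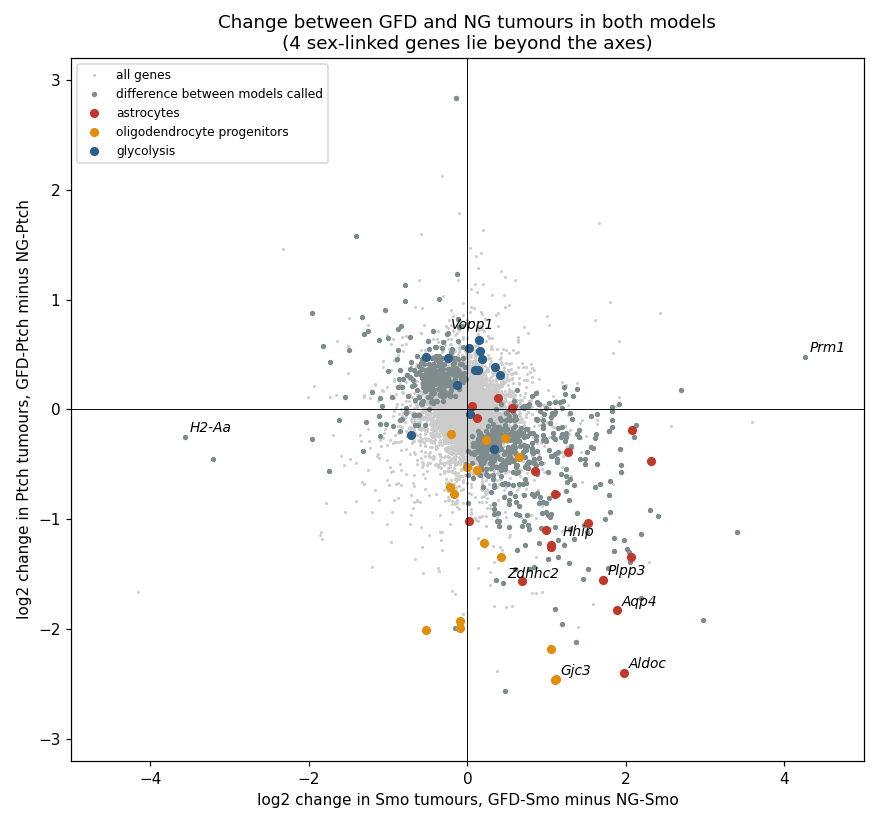
Log2 change between GFD and NG tumours in Smo tumours (horizontal axis) and in Ptch tumours (vertical axis), 1 point per gene, with genes whose difference between models was called in dark grey and the astrocyte, oligodendrocyte progenitor and glycolysis lists in colour; 4 sex-linked genes lie beyond the axes. Aqp4 lies at 1.89 and -1.83, in the lower right with most astrocyte genes.

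The largest differences on either side were in part set by the Smo tumours. Mtx2, a mitochondrial import gene, had changes of -1.92 in Ptch and 2.97 in Smo, and Zdbf2, an imprinted gene, of -1.12 and 3.40, but both overlapped between the Ptch groups. Scd1, the stearoyl-CoA desaturase, had changes of -1.72 and 2.19, and its Ptch values of 7.36 and 7.14 lay below the NG-Ptch range of 7.97 to 9.63. Prm1, a protamine, measured 11.14 and 11.15 in GFD-Ptch and 11.20, 11.27, 8.80 and 11.37 in NG-Ptch. Its difference was -3.78, with changes of 0.48 in Ptch and 4.26 in Smo, and NG-Ptch replicate 4 was the one low array of the 6. On the other side, H2-Aa, an MHC class II chain, and Wfdc17, a macrophage gene, had changes of -0.25 and -0.45 in Ptch against -3.57 and -3.21 in Smo. Tbx15, a transcription factor of mesenchyme, read 8.78 and 8.46 against 6.69 to 7.76 in Ptch tumours and had changes of 1.58 and -1.40. The protocadherins Pcdhb2 and Pcdhb3 had changes of 0.58 and 0.69 in Ptch and of -1.82 and -1.31 in Smo. Cerkl, Minar1 and Crispld1 had Ptch changes of 0.43, 0.54 and 0.84 and Smo changes of -1.73, -1.50 and -1.33.

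The GFI-Ptch tumours, set against the same NG-Ptch arrays, are given for level only, since both comparisons share those arrays. Vopp1 read 10.15 to 10.43 in the 4 GFI-Ptch arrays, a range that holds every NG-Ptch value. Zdhhc2 read 8.43 to 9.10, between the lower GFD-Ptch array and the NG-Ptch arrays. Gjc3 ranged from 6.72 to 9.98, Scrg1 from 6.13 to 9.05, Aqp4 from 8.83 to 11.20 and Egln3 from 7.33 to 10.91, ranges that reach toward the levels of both other groups. Nefl ranged from 6.85 to 7.21, near the GFD-Ptch arrays. The list medians of GFI-Ptch minus NG-Ptch were -1.0 for oligodendrocyte progenitor genes and -0.09 for astrocyte genes.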

How the data were processed

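Total RNA from mouse medulloblastomas had been extracted with Trizol, labelled with the Ambion WT and Affymetrix terminal labelling kits and hybridized to Affymetrix whole-transcript arrays, per the labels' protocols. The authors deposited log2 values for 35556 probe sets and 18 arrays, with 0 missing values and a range of 4.219 to 14.32. Partek 6.6 is named per the submitters' processing notes, and background correction, probe summary, scaling and genome build are not given in the sources used here. The log base was read from the range of the values. Of the probe sets, 21789 had 1 gene symbol, 1621 had several and 12146 had none in the platform table. Those with 1 symbol were kept, and for 999 genes with several probe sets the one with the highest mean was used, which left 19938 genes. No per-sample column was left out (0), and no gene was filtered.

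All 18 arrays were fitted with limma 3.58.1 in R 4.3.3, with 5 group means (degrees of freedom: 13 residual, 2.448 prior). Its moderated tests, two-sided, had Benjamini-Hochberg adjustment over the 19938 genes. The difference between models was a contrast of the same fit. The scripts were tested on simulated data, and tables and plots were made with Python 3.11.15. Gene lists were described by counts and medians without a test, and a member's group values were called not overlapping when all of 1 group lay above all of the other. Named genes were the called ones, the largest changes without overlap at an unadjusted p under 0.01, those called without GFI-Ptch replicate 4, the largest differences between models, the members with the largest change in each list (at most 5), and 11 fixed genes, with sex-linked, unnamed and receptor-cluster genes left out of the rankings. Members and lists were chosen with earlier results of these data known. Promoter windows came from the RefSeq table of GRCm38.p6. The alternatives were quantile normalization, median centring, a dim filter (mean of at least 7 in some group, 14283 genes), fits on 6 or 10 arrays, array weights, a trended and robust prior, the gender label (M, F and ND as levels), the Y-linked level, the replicate number as a block, the mean of probe sets and each array left out.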

Additional observations from a re-analysis of the deposited data

Results flagged for a closer look

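Among 99 genes and 34 list means examined within the NG-Ptch group of 4, 1 array stood apart from the others for 6 genes and 2 list means. Chance marks about 1 in 20 such groups. NG-Ptch replicate 4 accounted for 7 of the 8. In it Ttr measured 12.14 against 6.64 to 6.67, Prm1 8.80 against 11.20 to 11.37, Pgam1 11.35 against 10.92 to 10.97, Pdgfrb 8.32 against 7.90 to 7.95 and Gria1 9.18 against 9.61 to 9.67. Its mean of choroid plexus genes was 8.57 against 7.08 to 7.26, and of pericyte and smooth muscle genes 8.28 against 7.90 to 7.94. In NG-Ptch replicate 1, Chgb measured 9.98 against 9.53 to 9.57.

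The change from NG to GFD differed between Ptch and Smo tumours for 40 of the same 99 genes, against 3.81% of all genes. The threshold was an adjusted p under 0.05 in limma. Some of the 99 were chosen by that same call, so the count of 40 is in part built in. The difference, Ptch minus Smo, was below 0 for these genes of glia: Aldoc -4.39, Aqp4 -3.72, Gjc3 -3.57, Scrg1 -3.57, Plpp3 -3.25, Car2 -3.16, Kcnj10 -2.97, Slc14a1 -2.63, Clu -2.26, Bcan -2.05, Slc1a3 -1.97, Gfap -1.88 and Rlbp1 -1.84. It was below 0 as well for the signalling genes Hhip (-2.33), Fgfr2 (-2.02) and Jag1 (-1.61), for the neuronal genes Vxn (-3.03), Car8 (-3.0) and Nefl (-2.93), and for Mtx2 (-4.89), Zdbf2 (-4.51), Scd1 (-3.90), Prm1 (-3.78), Zswim5 (-3.49) and Zdhhc2 (-2.03). The difference was above 0 for H2-Aa (3.32), Uba1y (2.98), Tbx15 (2.97), Wfdc17 (2.76), Pcdhb2 (2.40), Crispld1 (2.18), Cerkl (2.17), Minar1 (2.04), Pcdhb3 (2.0), Chgb (1.38), Prickle2 (1.36), Sema3f (1.36), Slc2a3 (1.0), Vopp1 (0.94) and Kdm3a (0.88). Many of these genes were chosen for a large difference between the models.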

How the results depend on the processing

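Between GFD-Ptch and NG-Ptch 2 genes were called, and that count was 2 with a dim filter or the mean of probe sets. It was 4 with quantile normalization, 4 with median centring, 245 with the 6 arrays alone, 1 with the 10 Ptch arrays, 565 with array weights and 8 with a trended and robust prior. In limma it was 0 with the gender label (2962 genes at an unadjusted p under 0.05) and 0 with the Y-linked level (3895). With 1 array left out it ranged from 1 to 144. NG-Ptch replicates 1 and 2 gave 1 each when omitted, as did GFD-Smo replicates 1 and 2, and NG-Ptch replicate 4 gave 4. GFD-Ptch replicate 1 gave 55, GFI-Ptch replicates 1 to 4 gave 24, 6, 5 and 144, and NG-Smo replicates 1, 2 and 4 gave 10, 5 and 69. The 759 genes that differed between the models became 1484 with array weights, 188 with the gender label and 159 with the Y-linked level, and 248 to 1285 with 1 array left out. NG-Ptch replicates 1, 2 and 5 gave 457, 424 and 503 when omitted, GFD-Ptch replicates 1 and 2 gave 394 and 248, GFD-Smo replicates 1 to 3 gave 457, 444 and 447, and GFI-Ptch replicate 4 gave 1285.

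The labels do not state that the replicate numbers pair tumours. Only numbers 1 and 2 occur in both groups, and the deviations of same-numbered arrays from their group means correlated at 0.08 and -0.208. The deviations of the 2 GFD-Ptch arrays mirror each other, so these values cannot decide whether the numbers pair tumours. With the replicate block, 0 genes were called by limma in the Ptch comparison (3116 at an unadjusted p under 0.05) and 417 in the difference between models.

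The direction turned for 9 named genes. With the gender label the change was 0.50 for Olig2, 0.25 for Ptch1, -0.22 for Slc17a7, -0.01 for Msmo1 and -0.27 for Pvalb. With the Y-linked level it was -0.03 for Atoh1 and -0.08 for Eif2s3y. Eif2s3y is itself part of that level, so its value in that fit is not a separate reading. With 1 array left out the change of Ptch1 ranged from -0.29 to 0.05 (0.01 when GFD-Ptch replicate 2 was omitted), that of Mfsd2a from -0.48 (GFD-Ptch replicate 2) to 2.03, and that of Ttr from -1.74 to 0.09 (NG-Ptch replicate 4). For the other genes the causes were not tested.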
